A study of Homo sapiens with 6 samples.

Results

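The guidance genes described here are 47 genes of the Slit, Robo, semaphorin, plexin, neuropilin, netrin and ephrin families, a set of secreted or cell-surface signals and their receptors. They were chosen by name from these families, by a list of symbols with no threshold on a measured value. The list was drawn up with earlier results of these data known and does not hold every member of these families. Shares called among these genes are therefore a description that may carry that choice. The symbols were matched to the gene identifiers of the deposited count files. All 47 were found among the 60669 genes listed, and 43 of them passed the filter on low counts, which kept 17575 genes. RNA was measured in 3 groups of 2 libraries each, all of the 293T line, which derives from human embryonic kidney and carries viral transforming genes. The control cells were wild type with no treatment named. The second group was edited with CRISPR/Cas9 to remove MLL2 (MLL2 knockout), and in the third an shRNA lowered PRMT1 (PRMT1 knockdown), with no drug treatment named for either. PRMT1 adds methyl groups to arginines, MLL2 is a histone H3 lysine 4 methyltransferase, and the study's title concerns methylation by PRMT1, MLL2 stability and gene expression. Whether the knockout was 1 clone, and whether control and knockout cells carried an shRNA of their own, is not in the labels. The libraries of a group are called biological replicates, and the p-values measure only the spread between these libraries.

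Guidance signals tell growing axons and moving cells where to go. Slit proteins are secreted and bind Robo receptors, and semaphorins act through plexins, with neuropilins as co-receptors for most of the secreted ones. Netrins bind DCC and UNC5 receptors, while ephrins are tethered to the cell surface and signal on contact to Eph receptor tyrosine kinases. The same families shape blood vessels and the branching of the ureteric bud in the developing kidney, where Slit and Robo genes limit the site of budding.

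The libraries held 20061471 to 22351532 counts in genes. PRMT1 stood at 306 and 319 CPM (counts scaled to a common library size) in the control libraries, 406 and 425 in the knockout and 38.2 and 34.9 in the knockdown, a log2 change of -3.10 ± 0.09 (SE, adjusted p = 5.51e-16) in the knockdown. Because KMT2B and KMT2D have each been called MLL2, both were read, and neither was lower in the knockout, so RNA levels do not check that label: KMT2B was at 6.74 and 7.53 CPM in control, 7.12 and 7.36 in the knockout and 13.4 and 26.7 in the knockdown, and KMT2D was at 22.5 and 17.03 CPM in control, 20.8 and 24.2 in the knockout and 37.8 and 95.5 in the knockdown. Of the 10 genes taken as 293T markers, 9 reached 1 CPM in a library, with summed levels of 1232 to 1236 CPM in control, 978 to 993 in the knockout and 1061 to 1123 in the knockdown. Of the 4 endothelial, 4 mature kidney tubule and 4 neuronal markers, 0, 0 and 1 did so, namely SYT1 with 10.2 to 15.8 CPM, and UMOD, AQP2 and SLC12A1 were listed at 0 in every library. The summed 293T markers hid moves both ways. The neurofilament gene NEFL was at 347 and 352 CPM in control, 156 and 153 in the knockout and 56.6 and 53.3 in the knockdown. VIM was at 490 and 498 CPM in control, 507 and 512 in the knockout and 751 and 694 in the knockdown. PAX2 was the 293T marker that stayed below 1 CPM. The part of these differences in the results was not tested.

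In the MLL2 knockout the transmembrane ligand SEMA6B fell 4.82-fold, the semaphorin receptors PLXND1 and PLXNB1 fell 4.22-fold and 3.50-fold, and the repellent SLIT1 fell 3.60-fold. The secreted SEMA3C rose 2.51-fold and the ephrin EFNA1 1.996-fold. Of the 43 genes tested, 6 were called higher than control (14.0%) and 13 lower (30.2%), where called means an adjusted p under 0.05 in edgeR's quasi-likelihood test over all genes. Among all 17575 genes tested, 10.3% were called higher and 12.1% lower. The median log2 change was -0.17 for the guidance genes and -0.01 for all genes. By role, 3 of 25 ligands rose and 7 fell, and 3 of 18 receptors rose and 6 fell. The calls of SLIT1, SEMA3C, SEMA3E, SEMA6B, PLXNB1, PLXND1, EFNA1 and EPHA4 held under every setting tried and with each library left out in turn, whereas ROBO1, ROBO3, SEMA3F, PLXNA3, EFNB2, EFNB3, EPHA7 and EPHB2 lost theirs when either control or either knockout library was left out. Their log2 changes then ranged from 0.29 to 0.31 (ROBO1), -0.72 to -0.56 (ROBO3), -0.90 to -0.62 (SEMA3F), -0.83 to -0.66 (PLXNA3), 0.35 to 0.54 (EFNB2), -1.46 to -1.34 (EFNB3), 0.24 to 0.33 (EPHA7) and -0.39 to -0.35 (EPHB2). With such a library left out, the median log2 change ranged from -0.13 to 0.03 for the guidance genes and from -0.03 to 0 for all genes.

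More of these genes were called in the PRMT1 knockdown than in the knockout, and so were more of all genes. In each depletion the calls went in both directions. SLIT2 rose 3.94-fold in the knockdown, and SEMA3C, SEMA6A, EFNB2 and EPHA7 rose more than 2-fold. SEMA3B, EFNB3, SEMA3F and NTN4 fell at least 3-fold there. In all 10 of the 43 were called higher (23.3%) and 17 lower (39.5%), beside 22.2% and 25.3% of all genes tested. The share called higher was thus near that of all genes. The median log2 change was -0.07 for the guidance genes and -0.04 for all genes. Among the 25 ligands 5 rose and 8 fell, and among the 18 receptors 5 rose and 9 fell. Both comparisons use the same control libraries, so their values are set side by side below and the knockdown is compared with the knockout directly.

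Set against the knockout, the knockdown had 13 of the 43 guidance genes higher (30.2%) and 12 lower (27.9%), beside 19.4% and 21.4% of all genes tested. SLIT2, SEMA6A, SLIT1, PLXND1 and SEMA4B were higher in the knockdown by more than 2-fold, and EPHB3, SEMA3B, EFNA3 and NTN4 were lower by more than 2-fold. Differences between the depletions are given throughout as knockdown minus knockout on the log2 scale. The median log2 difference was -0.06 for the guidance genes and 0.01 for all genes. Without the second knockout library SEMA3F (-0.73), SEMA4B (0.67), NRP1 (0.30), EFNB1 (-0.24) and EPHB3 (-1.64) lost this call, and so did NTN4 (-0.92) without the first. PLXNA3 lost it without either knockout library (0.75 and 0.61) or the second knockdown library (0.26), with exon length offsets and in a fit of the compared groups alone. SEMA4D lost it without the first control (0.65), first knockout (0.40) or second knockdown library (0.33), in DESeq2, with either kind of offset and in a fit of the compared groups alone. NRP1 and EFNB1 also lost it with either kind of offset. In bulk RNA, fewer cells that express a gene and less RNA per cell cannot be told apart.

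**Figure D1:**
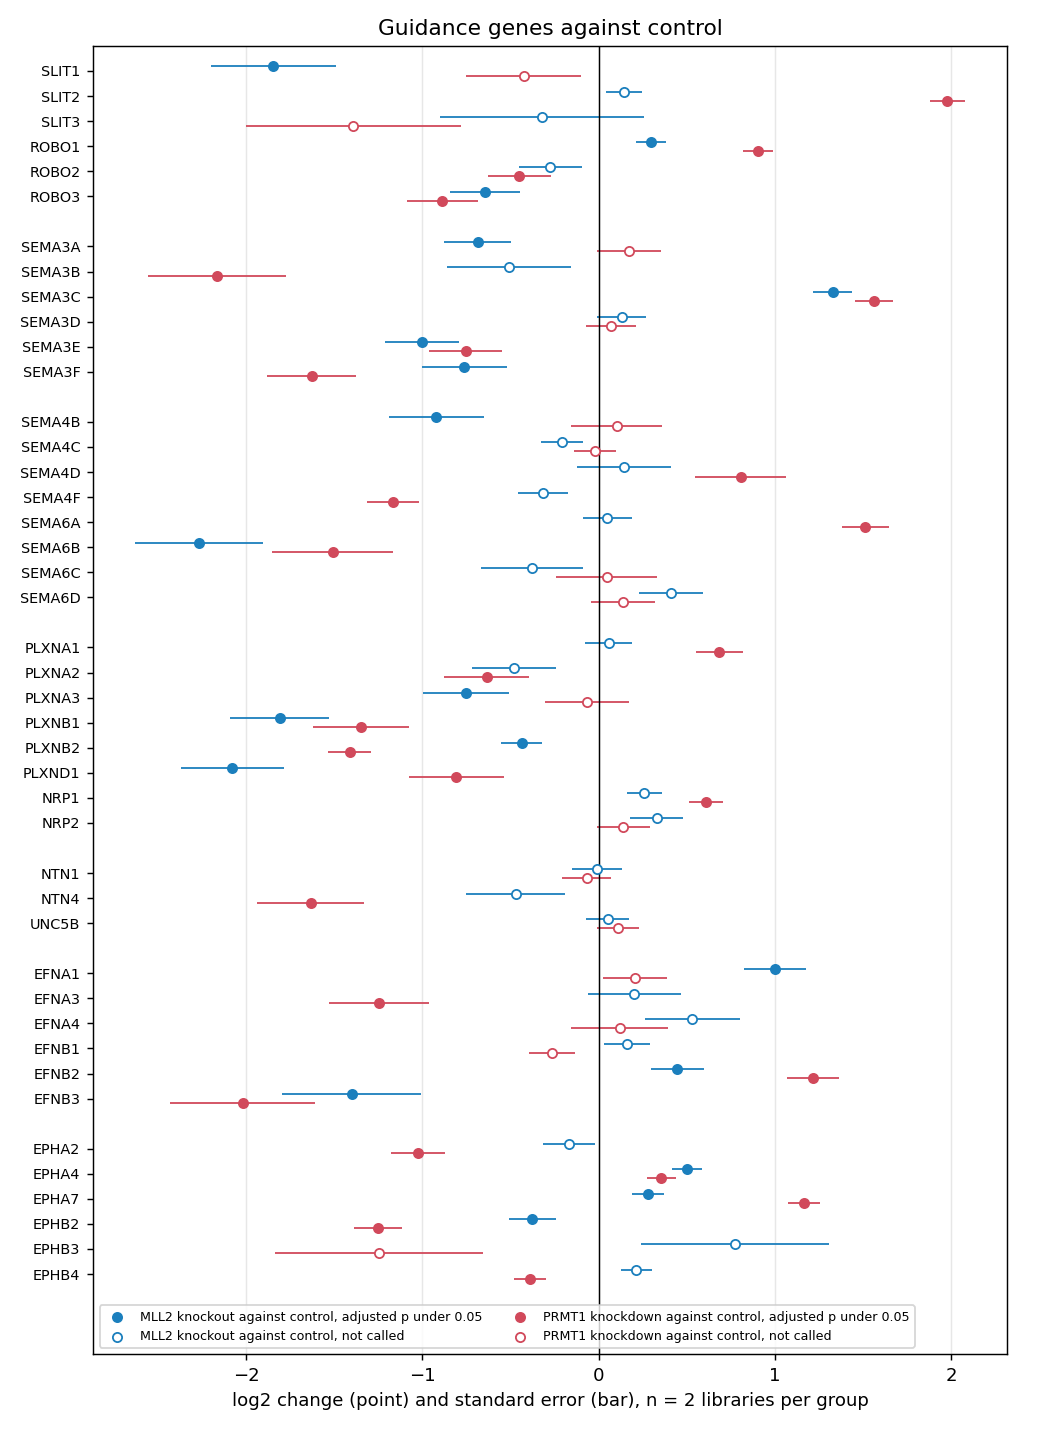
Log2 change against control (x axis) of the 43 guidance genes tested, listed by family, with the standard error as a bar, for the MLL2 knockout (blue) and the PRMT1 knockdown (red), n = 2 libraries per group. Filled points are called at an adjusted p under 0.05: SLIT2 lies at 1.98 in the knockdown and 0.14 in the knockout, whereas SEMA3C lies at 1.56 and 1.33.

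The sequence before the start site is shown for 4 genes that moved at least 2-fold in a comparison with control and have 1 start in the RefSeq table, which is also the start of the gene as counted, a pair that rose (SLIT2, EFNB2) and a pair that fell (SLIT1, EPHA2), to let the promoters of genes that moved in opposite directions be read side by side. SLIT2, EFNB2 and EPHA2 moved that far in the knockdown only and SLIT1 in the knockout only, so the pairs mix the depletions. The 4 genes were picked after their values were seen. Each run is the 250 bases before the annotated start, from RefSeq on build GRCh38.p14, 5′ to 3′ on the gene's strand: SLIT2 at chr4:20251655-20251904 on the plus strand, and on the minus strand EFNB2 at chr13:106535663-106535912, SLIT1 at chr10:97185960-97186209 and EPHA2 at chr1:16156070-16156319. Capitals mark 3 kinds of motif, searched on both strands with overlaps included. The letters GGGCGG make a GC box, the letters TATAAA make a TATA motif, and a CCAAT box is spelled by its name.
SLIT2: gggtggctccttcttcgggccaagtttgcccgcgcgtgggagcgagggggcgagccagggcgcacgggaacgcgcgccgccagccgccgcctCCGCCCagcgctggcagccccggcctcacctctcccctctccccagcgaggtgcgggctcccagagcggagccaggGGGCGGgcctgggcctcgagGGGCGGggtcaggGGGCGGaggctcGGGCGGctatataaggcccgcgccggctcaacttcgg
EFNB2: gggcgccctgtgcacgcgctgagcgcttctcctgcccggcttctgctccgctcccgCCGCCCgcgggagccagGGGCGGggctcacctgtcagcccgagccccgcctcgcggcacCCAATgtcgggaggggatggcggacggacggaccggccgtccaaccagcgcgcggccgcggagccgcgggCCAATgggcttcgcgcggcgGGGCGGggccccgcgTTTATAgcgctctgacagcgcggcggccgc
SLIT1: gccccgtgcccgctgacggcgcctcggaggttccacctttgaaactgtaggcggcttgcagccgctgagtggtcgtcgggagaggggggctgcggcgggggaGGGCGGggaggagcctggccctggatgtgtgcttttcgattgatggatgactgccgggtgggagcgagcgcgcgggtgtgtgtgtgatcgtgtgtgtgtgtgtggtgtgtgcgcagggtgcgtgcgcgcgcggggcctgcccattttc
EPHA2: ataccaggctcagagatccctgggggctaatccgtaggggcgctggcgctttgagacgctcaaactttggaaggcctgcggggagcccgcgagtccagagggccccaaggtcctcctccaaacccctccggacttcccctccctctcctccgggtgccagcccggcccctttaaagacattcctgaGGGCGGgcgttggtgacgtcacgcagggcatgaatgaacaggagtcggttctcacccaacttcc

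Each of these 4 start regions held more CpG than the median of all genes. SLIT2 had 30 CpG and 5 GC boxes, EFNB2 had 40 CpG, 3 GC boxes, 1 TATA motif and 2 CCAAT boxes, SLIT1 had 25 CpG and 1 GC box, and EPHA2 had 15 CpG and 1 GC box. RefSeq gave 63 start regions for 39 of the 47 genes, with a median of 20 CpG against 11 over the 35116 start regions of all genes. A GC box was found in 44 of the 63, a CCAAT box in 17 and a TATA motif in 3, beside 42.6%, 32% and 10.7% of all start regions. These letters are a description and not a test of any factor's binding.

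In control cells the guidance genes differed widely in level. Per kilobase of exon, EPHB4 was highest with a mean of 16.2 CPM per kb, followed by ROBO1 with 15.7, EPHA4 with 10.9, PLXNB2 with 10.02, EFNB1 with 8.78, SLIT2 with 8.04, EPHA7 with 7.51 and UNC5B with 7.20. The values of EPHB4 in the 2 libraries (15.2 and 17.2) enclosed those of ROBO1 (both 15.7), so the order of these receptors is not resolved. Of the genes tested, those at the low end were SLIT1 with 0.518, SEMA4D with 0.362, EPHB3 with 0.313 and SLIT3 with 0.120 CPM per kb. The level of SLIT2 per kb reached 27.9 and 35.4 in the knockdown libraries, next to 27.1 and 31.6 for ROBO1, so that the ligand and its receptor then stood at like levels.

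**Figure D2:**
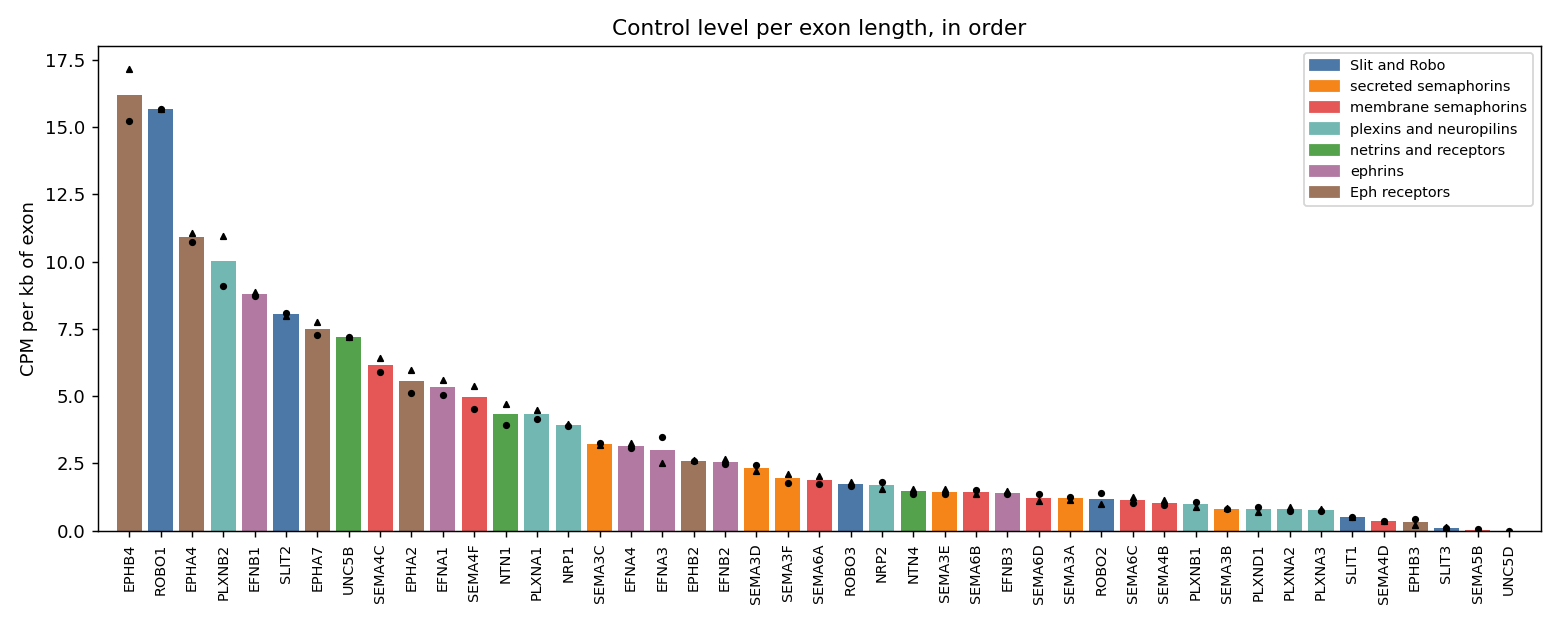
Control level in CPM per kb of exon (y axis) of the guidance genes with a count in control, in falling order and coloured by family, where bars are means of the 2 libraries, circles replicate 1 and triangles replicate 2. EPHB4 and ROBO1 lead with means of 16.2 and 15.7, and SLIT3 stands at 0.120.

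Not all of the families' best known members were expressed. DCC, the netrin receptor that draws axons in, had 0 counts in all 6 libraries, which allows up to 3 counts in each. UNC5D had 2 counts in the first control library, 2 in the second knockdown library and none elsewhere. SEMA5A had 1 count in all, in the second knockdown library. SEMA5B had 13 and 1 counts in the control libraries, 0 and 8 in the knockout and none in the knockdown. These 4 genes were not tested.

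The Slit and Robo genes parted by group. SLIT2, a secreted repellent and the most abundant Slit here, was at 89.6 and 88.4 CPM in control, 96.02 and 101 in the knockout and 308 and 392 in the knockdown. Both knockdown libraries lay far above all others, and the knockout libraries lay above control by less. The log2 change was 1.98 ± 0.10 (SE, adjusted p = 4.63e-12) in the knockdown and 0.14 ± 0.10 (SE, adjusted p = 0.336) in the knockout, and the knockdown exceeded the knockout by 1.83 ± 0.10 (SE, adjusted p = 3.61e-11). SLIT1, a paralogue known best from the nervous system, was at 4.64 and 4.82 CPM in control, 1.16 and 1.47 in the knockout and 2.95 and 4.08 in the knockdown. It was lowest in both knockout libraries, with no overlap between groups. The log2 fold change came to -1.85 ± 0.35 (SE, adjusted p = 7.68e-04) in the knockout and -0.43 ± 0.32 (SE, adjusted p = 0.295) in the knockdown, and the difference between the depletions was 1.42 ± 0.36 (SE, adjusted p = 0.00305). A read-through transcript named ARHGAP19-SLIT1 shares 2.36% of the exon bases of SLIT1 and had 0 to 7 counts per library. SLIT3, the remaining Slit, was at 0.527 to 1.99 CPM and was called in no comparison. Its log2 change was -1.39 ± 0.61 (SE, adjusted p = 0.0669) in the knockdown. With exon length offsets that value moved to -1.54 and passed the threshold.

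Among the receptors, ROBO1, which transmits Slit repulsion, was at 173 and 173 CPM in control, 211 and 215 in the knockout and 299.6 and 349 in the knockdown. The groups did not overlap, and the log2 change was 0.30 ± 0.09 (SE, adjusted p = 0.0154) in the knockout and 0.90 ± 0.09 (SE, adjusted p = 3.21e-08) in the knockdown, with 0.61 ± 0.09 (SE, adjusted p = 8.16e-06) between them. ROBO3, which in commissural axons modulates the response to Slits, moved the other way: it was at 11.7 and 12.6 CPM in control, 7.30 and 8.24 in the knockout and 6.04 and 7.07 in the knockdown, with log2 changes of -0.64 ± 0.20 (SE, adjusted p = 0.0233) and -0.89 ± 0.20 (SE, adjusted p = 9.87e-04). Its knockout call was lost with GC and exon length offsets (log2 change of -0.48). ROBO2, the receptor known from ureteric bud placement, was at 23.4 and 16.4 CPM in control, 18.3 and 14.5 in the knockout and 15.6 and 13.5 in the knockdown, and the first control library alone stood apart. Its log2 change in the knockdown was -0.45 ± 0.18 (SE, adjusted p = 0.042), a call lost without the first control library (-0.18), without the second knockdown library (-0.35), with relative log expression scaling (-0.42), in DESeq2 (-0.42) and in a fit of the compared groups alone (-0.41). Summed over the 6 genes, Slit and Robo transcripts came to 304 and 297 CPM in control, 336 and 341 in the knockout and 634 and 766 in the knockdown, and most of the difference lay in SLIT2 and ROBO1.

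**Figure D3:**
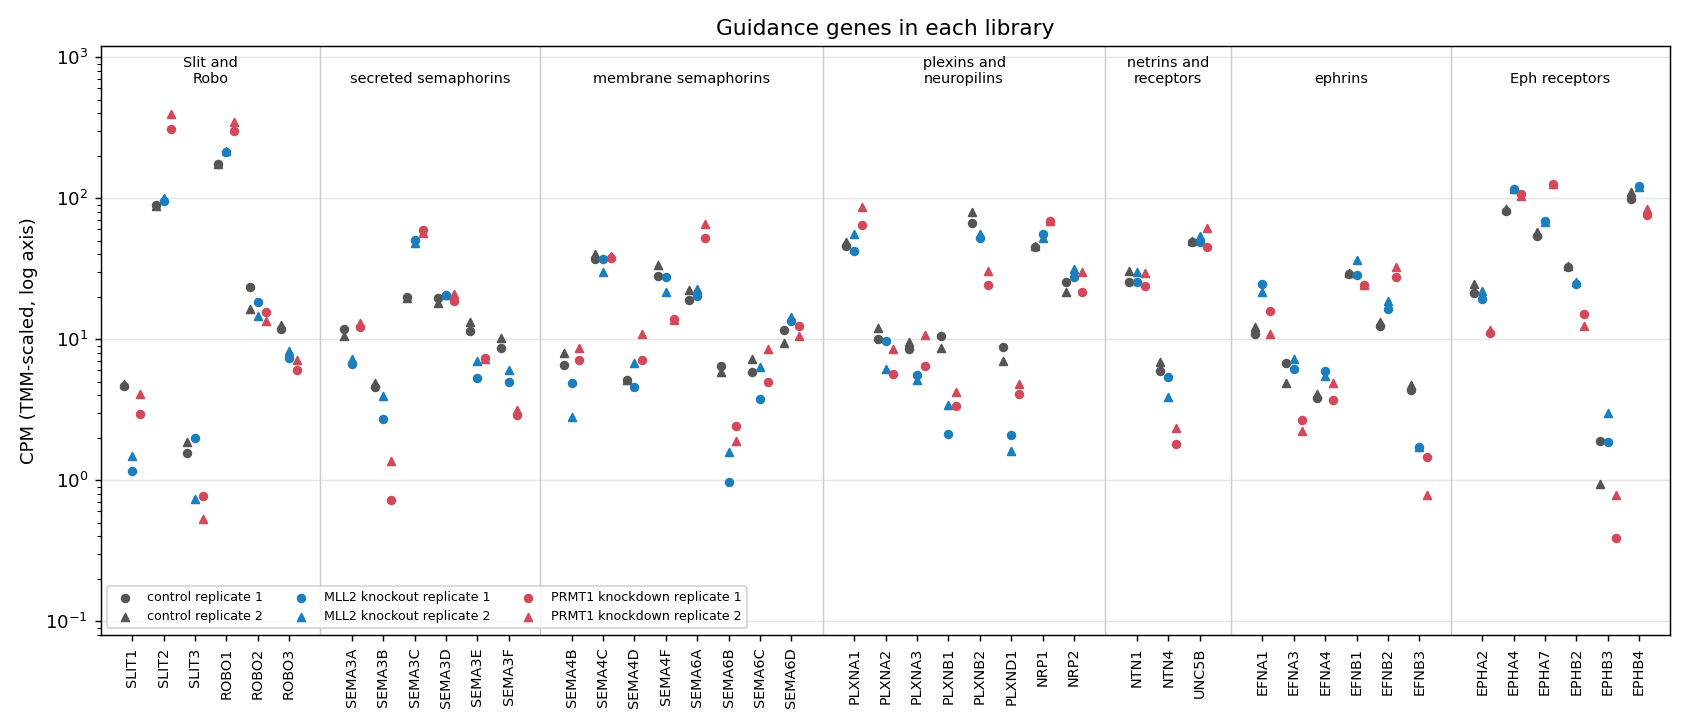
Level in CPM (log axis) of each of the 43 guidance genes tested, by family along the x axis, in each of the 6 libraries, with circles for replicate 1 and triangles for replicate 2 (grey control, blue MLL2 knockout, red PRMT1 knockdown). The SLIT2 points of the knockdown stand at 308 and 392 CPM above 88.4 to 101 CPM in the other libraries, and those of SEMA6B at 0.971 to 2.42 in both depletions below 5.81 and 6.44 in control.

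Of the 6 secreted semaphorins tested, 1 rose and 3 fell in each depletion. These are 16.7% and 50%, beside 10.3% and 12.1% of all genes in the knockout and 22.2% and 25.3% in the knockdown. SEMA3C, a ligand known for drawing cardiac neural crest cells, was at 19.9 and 19.5 CPM in control, 50.6 and 48.1 in the knockout and 59.7 and 56.3 in the knockdown. All 4 libraries of the depletions lay above both control libraries. On the log2 scale the change was 1.33 ± 0.11 (SE, adjusted p = 4.14e-08) in the knockout and 1.56 ± 0.11 (SE, adjusted p = 4.80e-10) in the knockdown, and the depletions differed by 0.23 ± 0.10 (SE, adjusted p = 0.0768), which passed the threshold only with a filter of 1 CPM or with GC and exon length offsets. SEMA3E, the ligand that binds PLXND1 without a neuropilin, was at 11.4 and 13.2 CPM in control, 5.32 and 6.97 in the knockout and 7.35 and 7.24 in the knockdown. It was lower in every library of the depletions than in control, with a log2 change of -1.004 ± 0.21 (SE, adjusted p = 0.00155) in the knockout and -0.75 ± 0.21 (SE, adjusted p = 0.00479) in the knockdown. The knockdown call was lost without the second control library (log2 change of -0.65).

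SEMA3F, a ligand that signals through NRP2, was at 8.58 and 10.2 CPM in control, 4.99 and 6.08 in the knockout and 2.90 and 3.16 in the knockdown. The groups stood in order without overlap, with the knockdown lowest. Its log2 change was -0.76 ± 0.24 (SE, adjusted p = 0.0256) in the knockout and -1.63 ± 0.25 (SE, adjusted p = 1.75e-05) in the knockdown, with -0.87 ± 0.26 (SE, adjusted p = 0.00946) between the depletions. In DESeq2 the knockout call was lost (-0.75). SEMA3B, its neighbour in the same semaphorin class, was at 4.59 and 4.87 CPM in control, 2.73 and 3.92 in the knockout and 0.725 and 1.361 in the knockdown. Only in the knockdown did its change pass the threshold, at -2.17 ± 0.39 (SE, adjusted p = 1.03e-04) against -0.51 ± 0.35 (SE, adjusted p = 0.331) in the knockout, and the difference between the depletions was -1.66 ± 0.39 (SE, adjusted p = 0.00194). SEMA3A, the classic collapsing factor for growth cones, behaved otherwise and was at 11.8 and 10.53 CPM in control, 6.61 and 7.26 in the knockout and 12.1 and 13.04 in the knockdown. It was lowest in both knockout libraries, with a log2 change of -0.69 ± 0.19 (SE, adjusted p = 0.0122) there, 0.17 ± 0.18 (SE, adjusted p = 0.462) in the knockdown and 0.86 ± 0.19 (SE, adjusted p = 9.56e-04) between them, and the knockout call was lost without the first control library (-0.60) or the first knockout library (-0.62). SEMA3D was at 18.01 to 20.7 CPM in all 6 libraries and was called in no comparison. The summed secreted semaphorins were 75.9 and 76.3 CPM in control, 90.8 and 93.0 in the knockout and 102 in both knockdown libraries.

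Membrane-bound semaphorins gave 2 falls in the knockout, and 2 rises and 2 falls in the knockdown, out of 8 tested. In the knockout that is 0% higher and 25% lower, beside 10.3% and 12.1% of all genes. In the knockdown it is 25% each way, near the 22.2% and 25.3% of all genes. SEMA6A, a transmembrane ligand of plexin-A receptors, was at 18.96 and 22.3 CPM in control, 20.1 and 22.7 in the knockout and 52.1 and 65.6 in the knockdown. Control and knockout libraries overlapped, and both knockdown libraries lay above them. The log2 change was 1.51 ± 0.13 (SE, adjusted p = 1.18e-08) in the knockdown and 0.05 ± 0.14 (SE, adjusted p = 0.84) in the knockout, with 1.46 ± 0.13 (SE, adjusted p = 3.05e-08) between them. SEMA6B, of the same class, went down and was at 6.44 and 5.81 CPM in control, 0.971 and 1.57 in the knockout and 2.42 and 1.89 in the knockdown. Both depletions lay below control without overlap. The log2 fold change came to -2.27 ± 0.36 (SE, adjusted p = 1.34e-04) in the knockout and -1.51 ± 0.34 (SE, adjusted p = 0.00103) in the knockdown, and the difference between the depletions was 0.76 ± 0.38 (SE, adjusted p = 0.116), short of the threshold.

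SEMA4F, a class 4 semaphorin, was at 28.2 and 33.4 CPM in control, 27.8 and 21.7 in the knockout and 13.9 and 13.6 in the knockdown. It fell in the knockdown, with a log2 change of -1.17 ± 0.15 (SE, adjusted p = 1.63e-06), and stood at -0.32 ± 0.14 (SE, adjusted p = 0.123) in the knockout, where its libraries lay just below those of control. SEMA4D, the ligand of PLXNB1, was at 5.14 and 5.12 CPM in control, 4.58 and 6.77 in the knockout and 7.11 and 10.8 in the knockdown. Its log2 change in the knockdown was 0.81 ± 0.26 (SE, adjusted p = 0.0137), lost when either control library or the second knockdown library was left out (0.47 without the latter). SEMA4B was at 6.59 and 8.02 CPM in control, 4.90 and 2.80 in the knockout and 7.06 and 8.60 in the knockdown, lower in the knockout than in either other group. On the log2 scale the change was -0.92 ± 0.27 (SE, adjusted p = 0.0177) in the knockout and 0.10 ± 0.26 (SE, adjusted p = 0.773) in the knockdown, with 1.02 ± 0.27 (SE, adjusted p = 0.00433) between the depletions. Without the second knockout library these became -0.57 (knockout) and 0.67 (between the depletions), and neither call held. SEMA4C, a ligand of PLXNB2, SEMA6C and SEMA6D were called in no comparison with all libraries in the fit. Their log2 changes were -0.38 to 0.41 against control. Without the first knockdown library, the difference of SEMA6C between the depletions went from 0.42 to 0.74.

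In the knockout 4 of the 8 plexins and neuropilins fell and none rose, and in the knockdown 4 fell and 2 rose, beside 12.1% and 25.3% of all genes called lower and 10.3% and 22.2% called higher. PLXND1, the receptor of SEMA3E and known from vessel patterning, was at 8.73 and 6.94 CPM in control, 2.08 and 1.62 in the knockout and 4.11 and 4.83 in the knockdown. The 3 groups did not overlap, and the knockout was lowest. Its log2 change was -2.08 ± 0.29 (SE, adjusted p = 3.61e-05) in the knockout and -0.81 ± 0.27 (SE, adjusted p = 0.0173) in the knockdown, and the knockdown exceeded the knockout by 1.27 ± 0.30 (SE, adjusted p = 0.00171). The knockdown call was lost without the first control library (-0.64) or the first knockdown library (-0.70). PLXNB1, the receptor of SEMA4D, was at 10.6 and 8.71 CPM in control, 2.13 and 3.38 in the knockout and 3.34 and 4.21 in the knockdown. All depleted libraries lay below control, with log2 changes of -1.81 ± 0.28 (SE, adjusted p = 1.06e-04) in the knockout and -1.35 ± 0.27 (SE, adjusted p = 3.47e-04) in the knockdown.

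PLXNB2, the plexin with the highest control level per length, was at 66.2 and 79.7 CPM in control, 52.05 and 55.6 in the knockout and 24.2 and 30.6 in the knockdown. The knockdown libraries were lowest, the knockout libraries next. The log2 change was -1.41 ± 0.12 (SE, adjusted p = 8.39e-09) in the knockdown and -0.44 ± 0.12 (SE, adjusted p = 0.0098) in the knockout, with -0.97 ± 0.12 (SE, adjusted p = 1.98e-06) between them, and the knockout call was lost without the second control library (-0.30) or the first knockout library (-0.39). PLXNA1, a receptor that pairs with neuropilins, was at 45.4 and 49.2 CPM in control, 42.3 and 56.02 in the knockout and 64.8 and 87.1 in the knockdown. The log2 fold change came to 0.68 ± 0.13 (SE, adjusted p = 2.37e-04) in the knockdown and 0.06 ± 0.13 (SE, adjusted p = 0.816) in the knockout, and the difference was 0.63 ± 0.13 (SE, adjusted p = 6.82e-04). PLXNA2 fell in the knockdown with a log2 change of -0.64 ± 0.24 (SE, adjusted p = 0.0345), a call lost without the second control library (-0.51), without the first knockdown library (-0.38) and in DESeq2. PLXNA3 fell in the knockout with a log2 change of -0.75 ± 0.24 (SE, adjusted p = 0.0305), a call lost in DESeq2 (-0.74). The co-receptor NRP1, which also binds vascular endothelial growth factor, was at 44.7 and 45.7 CPM in control, 55.7 and 52.4 in the knockout and 69.2 and 68.7 in the knockdown, and its log2 change was 0.61 ± 0.10 (SE, adjusted p = 2.58e-05) in the knockdown and 0.26 ± 0.10 (SE, adjusted p = 0.0621) in the knockout. It was called in the knockout under 6 of the alternatives, relative log expression scaling among them (0.28). NRP2 was at 21.6 to 31.4 CPM and was not called against control, except in the knockout under 5 alternatives, among them GC and exon length offsets (0.41).

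Of the 3 netrin and netrin receptor genes tested, 1 fell in the knockdown and none was called in the knockout. Among all genes tested, 22.2% rose and 25.3% fell in the knockdown, and 10.3% and 12.1% in the knockout. NTN1, the founding netrin, was at 25.2 and 30.3 CPM in control, 25.2 and 30.02 in the knockout and 23.7 and 29.2 in the knockdown, and the receptor UNC5B was at 49.2 and 49.4 CPM in control, 48.6 and 53.5 in the knockout and 45.3 and 60.9 in the knockdown. All groups overlapped for both, and neither was called in any comparison with all libraries in the fit. Without the first knockdown library, the log2 change of UNC5B in the knockdown went from 0.11 to 0.30. NTN4, a netrin that binds laminins in basement membranes, was at 5.99 and 6.84 CPM in control, 5.36 and 3.88 in the knockout and 1.79 and 2.33 in the knockdown. Both knockdown libraries lay below all others. On the log2 scale the change was -1.63 ± 0.30 (SE, adjusted p = 1.36e-04) in the knockdown and -0.47 ± 0.28 (SE, adjusted p = 0.254) in the knockout, with -1.16 ± 0.30 (SE, adjusted p = 0.00417) between them, the last lost without the first knockout library (-0.92).

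Ephrins moved in both directions. EFNB2, the B ephrin that marks arteries and signals to EPHB4, was at 12.4 and 13.3 CPM in control, 16.3 and 18.7 in the knockout and 27.5 and 32.2 in the knockdown. The groups stood apart, with the knockdown highest. Its log2 change was 0.44 ± 0.15 (SE, adjusted p = 0.0374) in the knockout and 1.22 ± 0.15 (SE, adjusted p = 8.64e-07) in the knockdown, and 0.77 ± 0.14 (SE, adjusted p = 2.00e-04) between them. The knockout call was lost in DESeq2. EFNB3, the B ephrin known as a midline barrier in the spinal cord, was at 4.34 and 4.72 CPM in control, 1.71 and 1.72 in the knockout and 1.45 and 0.790 in the knockdown. Each depleted library lay below both control libraries, and the log2 change was -1.40 ± 0.39 (SE, adjusted p = 0.0136) in the knockout and -2.02 ± 0.41 (SE, adjusted p = 3.68e-04) in the knockdown. EFNB1 was at 24.1 to 36.5 CPM and was not called against control.

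EFNA1, a ligand of EPHA2, was at 10.9 and 12.2 CPM in control, 24.4 and 21.6 in the knockout and 15.8 and 10.9 in the knockdown. Both knockout libraries lay above all others. The log2 change was 0.9974 ± 0.18 (SE, adjusted p = 3.66e-04) in the knockout and 0.21 ± 0.18 (SE, adjusted p = 0.362) in the knockdown, and the knockdown differed from the knockout by -0.79 ± 0.17 (SE, adjusted p = 9.84e-04). In the knockdown the value moved to 0.50 with exon length offsets and 0.57 with GC and exon length offsets, and then passed the threshold. EFNA3 was at 6.74 and 4.87 CPM in control, 6.15 and 7.21 in the knockout and 2.66 and 2.24 in the knockdown, lowest in the knockdown. The log2 fold change came to -1.25 ± 0.28 (SE, adjusted p = 0.00109) in the knockdown and 0.20 ± 0.26 (SE, adjusted p = 0.639) in the knockout. EFNA3 shares 43.9% and EFNA4 15% of their exon bases with the read-through transcript EFNA4-EFNA3, whose count was 0 in every library, so the counts of both are uncertain where reads fell on shared bases. EFNA4 was at 3.72 to 5.96 CPM and was called in no comparison.

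Of the 6 Eph receptors tested, 2 rose and 1 fell in the knockout, and 2 rose and 3 fell in the knockdown. That is 33.3% and 16.7% in the knockout, beside 10.3% and 12.1% of all genes. In the knockdown it is 33.3% and 50%, beside 22.2% and 25.3%. EPHA7 was at 54.2 and 57.9 CPM in control, 68.8 and 67.4 in the knockout and 125 and 126 in the knockdown, and the groups stood in order without overlap. On the log2 scale the change was 1.17 ± 0.09 (SE, adjusted p = 1.49e-09) in the knockdown and 0.28 ± 0.09 (SE, adjusted p = 0.0285) in the knockout, and 0.88 ± 0.09 (SE, adjusted p = 1.02e-07) between the depletions. Over the 17 expressed genes within 5 Mb of EPHA7, the median log2 change was -0.42 in the knockout, 0.08 in the knockdown and 0.60 between the depletions. EPHA4, the receptor that takes both A and B ephrins, was at 81.1 and 83.6 CPM in control, 117 and 117 in the knockout and 108 and 103 in the knockdown. It rose in both depletions, with a log2 change of 0.50 ± 0.08 (SE, adjusted p = 2.28e-04) in the knockout and 0.36 ± 0.08 (SE, adjusted p = 0.00157) in the knockdown. EPHA2, a receptor of EFNA1 known from epithelia, was at 21.3 and 24.8 CPM in control, 19.1 and 21.8 in the knockout and 10.98 and 11.6 in the knockdown. The knockdown libraries lay below all others, with a log2 change of -1.02 ± 0.15 (SE, adjusted p = 1.17e-05), against -0.17 ± 0.15 (SE, adjusted p = 0.454) in the knockout and -0.85 ± 0.15 (SE, adjusted p = 1.31e-04) between the depletions.

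EPHB2, a receptor of B ephrins that sorts cells in the intestinal crypt, was at 32.4 and 32.9 CPM in control, 24.8 and 25.5 in the knockout and 15.04 and 12.4 in the knockdown. The knockdown was lowest and no groups overlapped. Its log2 change was -1.25 ± 0.14 (SE, adjusted p = 2.21e-07) in the knockdown, -0.38 ± 0.13 (SE, adjusted p = 0.0445) in the knockout and -0.88 ± 0.14 (SE, adjusted p = 3.05e-05) between them. The knockout call was lost in 5 of the other settings, among them DESeq2 (-0.36) and GC and exon length offsets (-0.26). EPHB4, the receptor of EFNB2, was at 97.9 and 110.4 CPM in control, 121 and 120.4 in the knockout and 76.02 and 83.04 in the knockdown. It fell in the knockdown, with a log2 change of -0.39 ± 0.09 (SE, adjusted p = 0.00129), and stood at 0.21 ± 0.09 (SE, adjusted p = 0.0933) in the knockout, with -0.60 ± 0.09 (SE, adjusted p = 1.77e-05) between them. The knockout value was called under 5 alternatives, at 0.36 with GC and exon length offsets. EPHB3 was low, at 1.90 and 0.935 CPM in control, 1.85 and 2.99 in the knockout and 0.387 and 0.790 in the knockdown, and its only call was the difference between the depletions, which was -2.02 ± 0.57 (SE, adjusted p = 0.00756), and -1.64 without the second knockout library, where it was lost, and -2.63 without the second knockdown library. Against control its knockdown value gained a call without the second control library (-1.68) or the second knockdown library (-1.85). Summed Eph receptor levels were 289 and 311 CPM in control, 352 and 355 in the knockout and 335 and 338 in the knockdown.

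The GC content of the guidance transcripts moved with their change. The 43 genes tested had a median GC content of 58.2%, against 47.4% for the 11491 genes with an average log2 CPM above 2. In the knockdown the 10 genes that rose had a median GC of 46.0% and the 17 that fell 60.8%, and in the knockout the 6 that rose had 46.0% and the 13 that fell 61.3%. Across the 43 genes, which share libraries and depth, Spearman's rank correlation between GC content and log2 change was -0.39 in the knockout and -0.54 in the knockdown, beside -0.17 and -0.17 across the other gene set, given as a description. Of the 24 guidance genes at 55% GC or more, 1 rose and 11 fell in the knockout, with a median log2 change of -0.38, and 1 rose and 12 fell in the knockdown, with -0.62. Of the 2960 genes of all kinds in that band, 9.53% rose and 19.0% fell in the knockout and 20.2% rose and 40.4% fell in the knockdown, with medians of -0.05 and -0.19. With offsets for GC and exon length, 9 guidance genes were higher and 11 lower in the knockout, and 11 and 17 in the knockdown. Of all 17350 genes in that fit, 2448 were higher and 2232 lower in the knockout, and 4624 and 4021 in the knockdown. The median log2 change of the guidance genes moved from -0.17 to -0.06 in the knockout and from -0.07 to -0.01 in the knockdown. That of all genes moved from -0.01 to 0.01 and from -0.04 to 0.06. Genes that rose in the knockdown also spanned more of the genome, with a median of 157.5 kb against 31.7 kb for those that fell. SLIT2 and EPHA7 were among the former and EFNB3 among the latter, but so was ROBO2, the longest at 1743 kb. A span over all genes is not given here. For exon length, the rank correlation with the knockdown change was 0.28 in the 43 genes and 0.23 in the 11491.

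**Figure D4:**
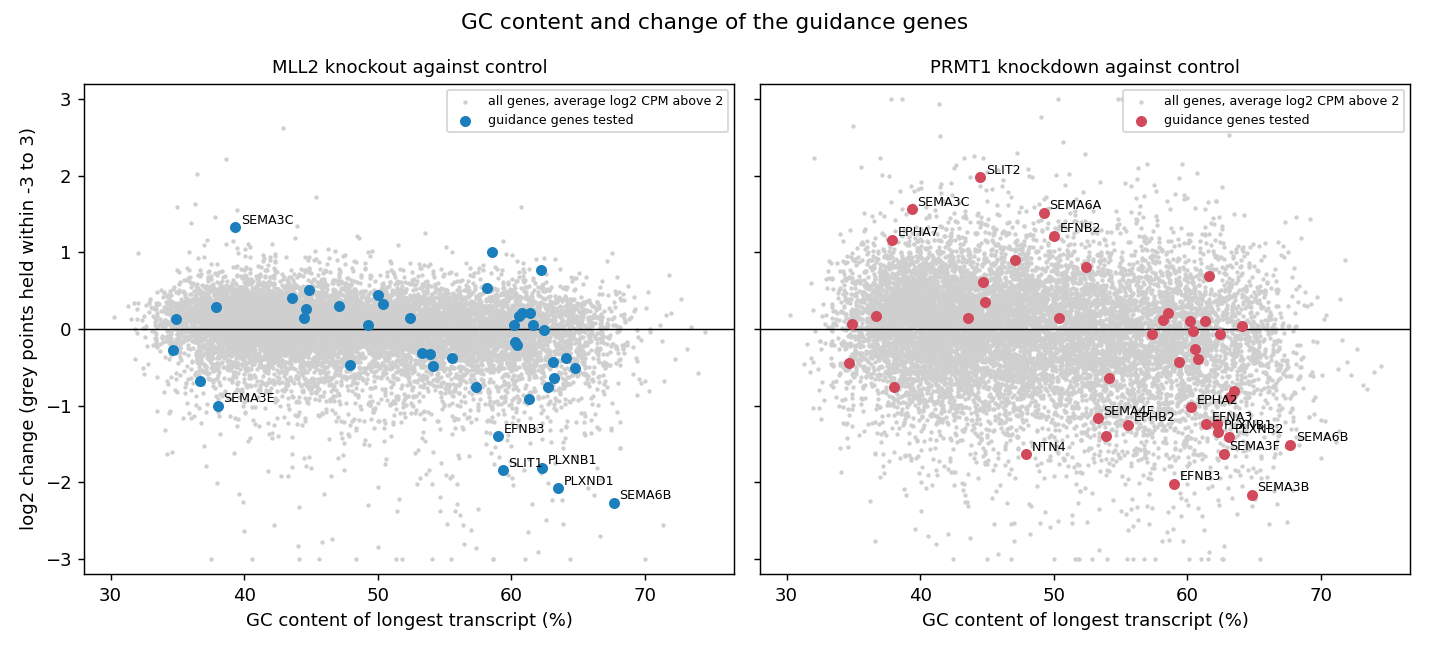
Log2 change against control (y axis) by GC content of the longest transcript in percent (x axis), for the 43 guidance genes tested (coloured) over the genes with an average log2 CPM above 2 (grey, held within -3 to 3), in the knockout (left) and the knockdown (right). Coloured points with a change of at least 1 are named when called, and Spearman's rank correlation is -0.39 on the left and -0.54 on the right.

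The levels of guidance genes also differed between the libraries of a group. In the knockdown the second library lay above the first by a median of 0.22 on the log2 scale over the 43 genes. The median was -0.04 over the 11491 genes with an average log2 CPM above 2. In control and the knockout the 43 genes gave 0.09 each. SLIT2, SEMA6A and PLXNA1 were each higher in the second knockdown library, and KMT2B and KMT2D were too. The part of this difference in the results was not tested.

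A further list held 33 guidance genes, of which 23 were tested. Some of them, such as FLRT3, RGMB and GPC1, lie outside these families. The median log2 change was -0.11 in the knockout and -0.18 in the knockdown. Of the 23, 1 rose (FLRT3) and 4 fell in the knockout, and 6 rose and 5 fell in the knockdown. These are 4.35% and 17.4% in the knockout, beside 10.3% and 12.1% of all genes, and 26.1% and 21.7% in the knockdown, near the 22.2% and 25.3% of all genes. FLRT3, a surface protein that binds Robo and UNC5 receptors, was at 14.1 and 13.5 CPM in control, 31.2 and 30.1 in the knockout and 31.4 and 27.9 in the knockdown, with a log2 change of 1.15 ± 0.13 (SE, adjusted p = 3.64e-06) in the knockout and 1.10 ± 0.13 (SE, adjusted p = 8.11e-07) in the knockdown. The Eph receptors EPHA6 and EPHA8 fell in the knockout, with log2 changes of -2.15 ± 0.25 (SE, adjusted p = 3.79e-06) and -2.23 ± 0.29 (SE, adjusted p = 1.22e-05), as did EPHA10 with -1.75 ± 0.51 (SE, adjusted p = 0.0159). EPHA10 and EPHA6 also fell in the knockdown, with -2.27 ± 0.52 (SE, adjusted p = 0.0012) and -0.75 ± 0.23 (SE, adjusted p = 0.00948), while EPHA8 was not called there. EFNA5, an A ephrin, rose in the knockdown with a log2 change of 1.11 ± 0.17 (SE, adjusted p = 1.70e-05), RGMB rose with 0.77 ± 0.13 (SE, adjusted p = 6.52e-05), and EPHA3 fell with -0.62 ± 0.11 (SE, adjusted p = 5.57e-05). In the knockdown against the knockout, 5 of the 23 were higher (21.7%) and 2 lower (8.70%), beside 19.4% and 21.4% of all genes.

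Of 49 transducers that carry guidance signals inside the cell, all tested, 5 rose and 8 fell in the knockout and 15 rose and 16 fell in the knockdown, with medians of 0.09 and -0.15. These are 10.2% and 16.3% in the knockout, beside 10.3% and 12.1% of all genes, and 30.6% and 32.7% in the knockdown, beside 22.2% and 25.3%. NGEF, an exchange factor downstream of EphA receptors, was at 9.68 and 10.3 CPM in control, 1.76 and 1.47 in the knockout and 1.89 and 2.15 in the knockdown, a log2 change of -2.63 ± 0.29 (SE, adjusted p = 2.33e-06) in the knockout. MICAL1, an oxidase that disassembles actin below plexins, fell in the knockout with a log2 change of -1.77 ± 0.24 (SE, adjusted p = 1.92e-05). The kinases PTK2 and FYN fell there with -0.67 ± 0.09 (SE, adjusted p = 1.31e-05) and -0.60 ± 0.08 (SE, adjusted p = 2.87e-05). Changes of neighbouring genes, given above for EPHA7, were not computed for these transducers. In the knockdown the falls with the smallest adjusted p were those of CDK5, a kinase of the collapsin response mediators, at -1.04 ± 0.10 (SE, adjusted p = 2.60e-08), and of the mediators DPYSL2, DPYSL5 and DPYSL4, at -0.99 ± 0.11 (SE, adjusted p = 1.54e-07), -0.97 ± 0.11 (SE, adjusted p = 3.53e-07) and -1.54 ± 0.18 (SE, adjusted p = 6.67e-07). Against the knockout, 14 of the 49 were higher in the knockdown (28.6%) and 13 lower (26.5%), beside 19.4% and 21.4% of all genes. Among the lower was CFL1, an actin-severing protein, at -0.92 ± 0.09 (SE, adjusted p = 4.20e-08).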

How the data were processed

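RNA of 6 libraries of 293T cells was sequenced with a stranded total RNA kit, per the labels' protocols. The files the authors deposited hold raw gene counts, with a separate file for each library. Per the submitters' processing notes, the tools were Trim Galore 0.6.10 for trimming, STAR 2.7.5a for alignment (build hg38) and featureCounts 1.5.0-p1 for counting. Per the file headers, counting used featureCounts 2.0.1, GENCODE 34, a minimum mapping quality of 10 and reverse-stranded counting, and why the versions differ is not given in the sources used here. The alignments named in the headers carry shNT for control and knockout and shPR for the knockdown, which the labels do not explain. Low mapping quality removes reads shared by near-identical copies.

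The counts were filtered with filterByExpr, scaled by TMM and fitted in edgeR 4.0.16 (R 4.3.3) with 1 term per group over all 6 libraries, leaving 3 residual degrees of freedom. The quasi-likelihood test gave Benjamini-Hochberg adjusted p-values over 17575 genes, called under 0.05, for each depletion against control and for the knockdown against the knockout. SE is the absolute log2 change divided by the square root of F. CPM are TMM-scaled. GC content came from the longest transcript in GENCODE 29 (17350 genes, 43 of 43 guidance genes tested). The fit was tested on simulated data.

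The genes and lists were chosen with earlier results of these data known. Values in every library are given for guidance genes called in a comparison with an absolute log2 change of at least 1 and for other guidance genes where they help. From each further list, up to 4 genes per comparison with the smallest adjusted p were taken, most of them given by their log2 change. The alternatives were relative log expression scaling, DESeq2 1.42.0, no filter, a filter of 1 CPM in 2 libraries, the replicate number as a block, exon length offsets, a fit of only the groups compared, and dropping each library in turn. Offsets for GC and exon length were added after seeing the data. One list of marker genes of another cell type is not reported here.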

Additional observations from a re-analysis of the deposited data

How the results depend on the processing

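With 2 libraries per group, the knockout calls depended on single libraries. With each library left out in turn, the guidance genes called in the knockout ranged from 3 to 9 higher and 6 to 13 lower, and the genes of all kinds called from 1908 to 5492, where the low ends came without a control or knockout library. A group reduced to 1 library is assumed to vary like the others. Of the 19, 27 and 25 guidance calls (knockout, knockdown, knockdown against knockout), 14, 25 and 21 held under every other setting, and 8, 22 and 17 also with every library left out. No call reversed in any of the 266, 378 and 350 values recomputed. How many calls of all genes held in this way was not computed. With the replicate block the guidance calls were 6 higher and 13 lower in the knockout, 10 and 17 in the knockdown, and 13 and 12 between the depletions, and 4512, 8710 and 7529 genes were called in all. Deviations of same-numbered libraries correlated at 0.06, 0.04 and 0.20 over 11509 genes, and the labels do not say that a number marks a shared batch, so the numbers were not taken to pair the libraries. Guidance genes near 1 CPM, such as SLIT3 and EPHB3, had standard errors of 0.53 to 0.62 against control or between the depletions, so only large changes could be detected in them.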
